A study of Mus musculus with 8 samples.

Results

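The genes of GABA synthesis, transport and GABA-B signalling were followed in sorted cells of the mouse central amygdala. There were 9 of them among 21375 genes: Gad1, Gad2, Slc32a1, Slc6a11, Abat, Gphn, Nlgn2, Gabbr1 and Gabbr2. They were chosen by name for their roles, and the deposited transcript levels in TPM, a unit scaled to transcript length and to the library total, and estimated counts of all targets carrying each symbol were summed in every library. RNA-seq libraries came from 8 male mice, 1 mouse per library, each from about 1000 tdTomato-positive cells sorted out of bilateral punches of the central amygdala. The PKCd group held 4 mice with PKC delta-type::Cre and the SST group 4 mice with SST::Cre, and all 8 carried a Cre and the Rosa::loxP-STOP-loxP-td-Tomato reporter, so a cell was labelled if it, or a cell it descended from, had used that Cre. The PKCd mice were 9 weeks (replicates 1 and 2) or 18 weeks old (replicates 3 and 4), and the SST mice 8 weeks (replicates 1 and 2) or 20 weeks old (replicates 3 and 4). No wild-type or unsorted library was analysed here.

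Most projection and local neurons of the central amygdala release GABA, and cells that express protein kinase C delta or somatostatin form separate inhibitory populations there. GABA is made from glutamate by a pair of glutamate decarboxylases, GAD67 (Gad1) and GAD65 (Gad2), and is loaded into vesicles by the carrier VGAT (Slc32a1). It is cleared by plasma membrane transporters, among them GAT3 (Slc6a11), which is known mainly from astrocytes, and is broken down in mitochondria by GABA transaminase (Abat). At the receiving side gephyrin (Gphn) and neuroligin 2 (Nlgn2) hold ionotropic receptors in place, and the metabotropic GABA-B receptor is a heterodimer in which GABBR1 binds GABA and GABBR2 couples to the G protein.

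Depth split the libraries by age. The younger libraries (8 to 9 weeks) held 10316149 to 18242496 estimated counts, and the older ones (18 to 20 weeks) 964361 to 2522749, so that age class and depth cannot be told apart. Of the genes behind the sort, Prkcd lay at 106 to 226 TPM in the PKCd and 0 to 30.2 TPM in the SST libraries. Sst lay at 116 to 296 TPM in the SST libraries and at 0.209, 223, 4.32 and 13.7 TPM in PKCd replicates 1 to 4, so PKCd replicate 2 was within the SST range. Over all 11370 genes tested, 32 were higher and 0 lower in PKCd than in SST at an adjusted p under 0.05 (0.281%, edgeR quasi-likelihood test, Benjamini-Hochberg adjustment), while DESeq2 found 365 higher and 92 lower. In edgeR 759 genes had an unadjusted p under 0.05. In the older libraries 3 counts of a gene such as Slc32a1 correspond to 0.722 to 1.99 TPM.

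Of the 9 genes, 8 passed the filter on low counts and 0 of these 8 passed the test between PKCd and SST, against 0.281% of all genes tested. None of the 8 had an unadjusted p under 0.05, and DESeq2, limma-voom and limma on log2 TPM also called 0. In TPM, 0 of the 9 genes had populations that did not overlap, where 6.91% of all genes tested had. Libraries of one population lay far apart: the SD within a population on the log2(TPM + 1) scale had a median of 1.67 over the 9 genes and 1.35 over all genes tested. It was largest for Gad2 (2.39) and smallest for Gabbr1 (1.12).

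**Figure D1:**
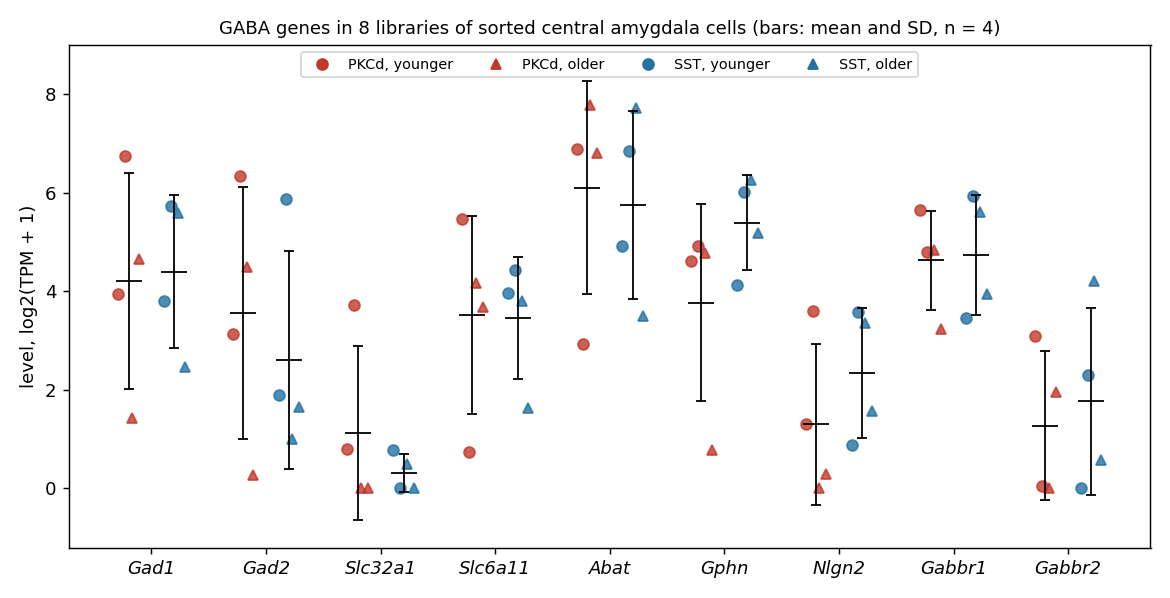
Level of each GABA gene on the log2(TPM + 1) scale (vertical axis) in each library, with PKCd in red and SST in blue, circles for younger and triangles for older mice, and the mean and SD of 4 libraries in black. The 4 PKCd and the 4 SST points of every gene overlap, and Slc32a1 sits at 0 TPM in 4 of the 8 libraries.

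By mean TPM over the 8 libraries, a scale corrected for transcript length, the order was Abat (102), Gphn (33.8), Gad1 (33.0), Gabbr1 (30.5), Gad2 (21.6), Slc6a11 (15.4), Nlgn2 (4.47), Gabbr2 (4.05) and Slc32a1 (1.76). The means of neighbours in this order lay closer together than the larger SD of the pair over the 8 libraries. Abat, with an SD of 83.1 TPM over 8 libraries, and Gphn, with one of 24.4 TPM, were the neighbours farthest apart. By population Abat was at 114 ± 86.8 TPM in PKCd and 90.7 ± 90.7 TPM in SST, and Gad1 at 36.7 ± 47.5 and 29.2 ± 24.0 TPM (SD, n = 4 each).

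Gad1 (GRCm38 chr2:70561303-70602014), the decarboxylase that supplies most basal GABA, was at 14.4, 107, 1.71 and 24.2 TPM in PKCd replicates 1 to 4 and at 12.9, 52.2, 47.1 and 4.55 TPM in SST replicates 1 to 4. PKCd replicate 2 was highest and PKCd replicate 3 lowest, so both ends of the range lay in one population. The log2 difference, PKCd minus SST, was 0.14 ± 1.10 (SE; 95% interval -2.27 to 2.54; edgeR adjusted p = 0.991). It was -0.94 without PKCd replicate 2, and also below 0 without PKCd replicate 4, SST replicate 1 or SST replicate 4. PKCd replicate 3 held only 3 estimated counts of Gad1, where PKCd replicate 2 held 2401.

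Gad2 (chr2:22621015-22693877), the decarboxylase tied to synaptic vesicles, was at 7.75, 80.0, 21.6 and 0.208 TPM in the PKCd libraries and at 2.71, 57.4, 0.992 and 2.14 TPM in the SST libraries. One younger library in each population, replicate 2, was far above the others of that population, and the ranges overlapped. The difference was 1.80 ± 1.29 on the log2 scale (95% interval -1.02 to 4.63; edgeR adjusted p = 0.878). Without PKCd replicate 3 it was -0.0930.

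The balance of the decarboxylases varied widely between libraries of each population, and the populations overlapped. Gad1 made up 65.1, 57.1, 7.34 and 99.1% of summed Gad1 and Gad2 TPM in PKCd replicates 1 to 4, and 82.7, 47.6, 97.9 and 68.0% in SST replicates 1 to 4. The means were 57.2 ± 37.9% and 74.0 ± 21.5% (SD, n = 4). Gad1 and Gad2 levels went together only weakly over the 8 libraries (Pearson r = 0.26, Spearman rho = 0.29 on log2 values). Without the 2 libraries farthest from the median of Gad2, r was -0.75. These values are a description over libraries that differ in depth.

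Slc32a1 (chr2:158607260-158615747), which encodes VGAT, was close to the limit of detection. It was at 0.736, 12.2, 0 and 0 TPM in PKCd replicates 1 to 4 and at 0.716, 0, 0.406 and 0 TPM in SST replicates 1 to 4. PKCd replicate 2 alone held 236 of its estimated counts and 86.8% of its TPM summed over the libraries. It was at 0 in 4 libraries, 3 older and 1 younger, where 3 counts would have been 1.99 and 1.26 TPM in PKCd replicates 3 and 4 and 0.125 and 0.722 TPM in SST replicates 2 and 4. In SST replicate 2, at 16009560 estimated counts, it was therefore under 0.125 TPM while Gad1 and Gad2 were at 52.2 and 57.4 TPM. The gene did not pass the filter, and a fit with no filter gave 1.70 on the log2 scale (edgeR adjusted p = 0.964).

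Abat was the most abundant of the 9 genes, and along with Gphn it was represented by a pair of spliced targets that differ by exons of a whole number of codons. These exons are shown because the libraries differed most sharply in which form the estimated counts were assigned to. All lie within the coding sequence, on the plus strand of GRCm38, and are read from GENCODE M21 transcripts. One Abat target carries, and the other lacks, exon 13 of 16 (chr16:8611127-8611294, 168 bases); capitals mark the in-frame codon of the lysine that holds the pyridoxal phosphate cofactor.
Abat 168-base exon: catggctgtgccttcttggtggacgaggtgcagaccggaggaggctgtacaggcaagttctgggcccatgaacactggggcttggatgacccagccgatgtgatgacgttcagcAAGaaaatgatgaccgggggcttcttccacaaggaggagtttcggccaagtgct

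The Gphn targets differ in a set of 3 exons. One carries exon 8 of 23 (chr12:78493950-78494057, 108 bases), and the other instead carries exon 9 of 24 (chr12:78522898-78522954, 57 bases) and exon 10 of 24 (chr12:78532657-78532698, 42 bases). No letters are capitalised in these, since no single part is at issue.
Gphn 108-base exon: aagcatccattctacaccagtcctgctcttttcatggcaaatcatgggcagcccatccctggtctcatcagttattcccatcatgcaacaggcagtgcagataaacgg
Gphn 57-base exon: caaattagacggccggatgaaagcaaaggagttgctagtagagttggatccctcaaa
Gphn 42-base exon: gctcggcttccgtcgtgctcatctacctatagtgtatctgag

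The form of Abat with the 168-base exon made up 100, 12.04, 100 and 76.8% of Abat TPM in PKCd replicates 1 to 4. In SST replicates 1 to 4 it made up 0, 100, 95.9 and 0%. The means were 72.2 ± 41.6% and 49.0 ± 56.6% (SD, n = 4), and the populations overlapped over nearly the whole range. SST replicate 1 had 1410 estimated counts on the form without the exon and 0 on the other, SST replicate 2 had 4659 on the form with it, and the 0% of SST replicate 4 rests on 70 counts. Reads that fit both forms were divided by the authors' tool as an estimate, and no junction counts were used here.

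The gephyrin forms also differed between libraries of one population. The form with the 108-base exon made up 94.4, 2.81, 100 and 100% of Gphn TPM in PKCd replicates 1 to 4 and 3.07, 50.5, 61.2 and 94.3% in SST replicates 1 to 4. The value of 100% in PKCd replicate 4 rests on 2 estimated counts. In the younger PKCd libraries replicate 1 had 826 estimated counts on this form and 49.0 on the other, while replicate 2 had 18.9 and 650. The means were 74.3 ± 47.7% and 52.3 ± 37.7% (SD, n = 4).

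**Figure D2:**
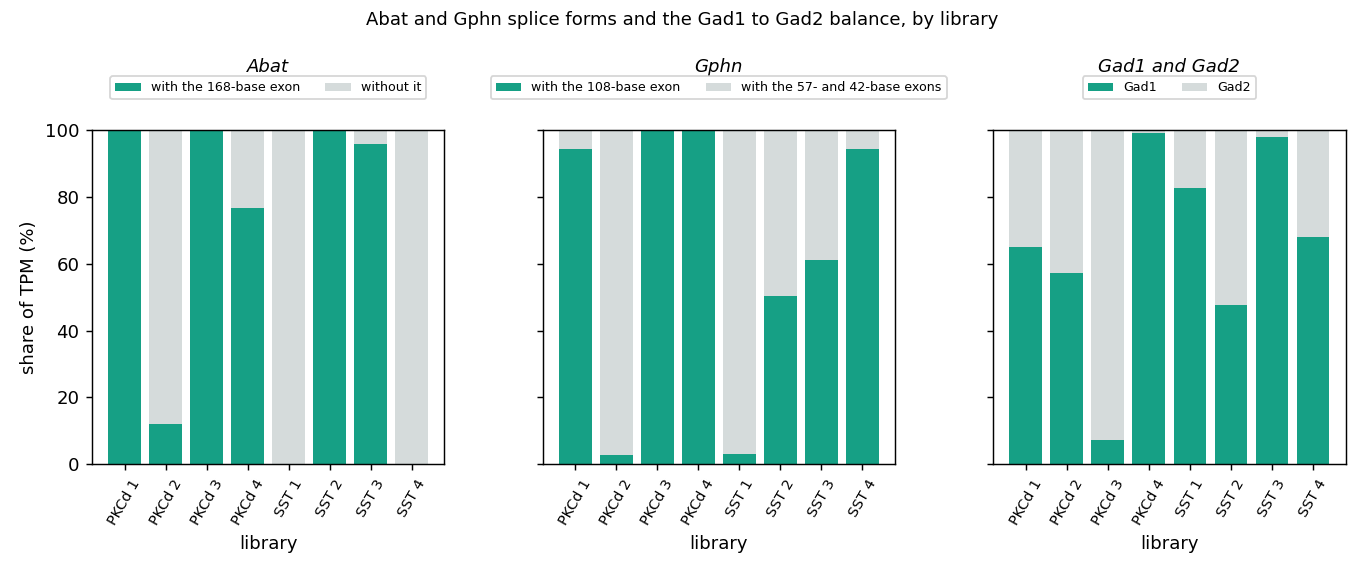
Share of TPM in percent (vertical axis, from 0) taken in each library by the Abat form with the 168-base exon, the Gphn form with the 108-base exon, and Gad1 among Gad1 and Gad2 (green), with the remainder in grey. Abat runs from 0 to 100% within the SST libraries, and Gphn from 2.81 to 100% within the PKCd libraries.

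Slc6a11 (chr6:114131241-114249886), encoding the transporter GAT3, was at 43.2, 0.661, 17.0 and 11.9 TPM in PKCd replicates 1 to 4 and at 14.6, 20.7, 12.9 and 2.11 TPM in SST replicates 1 to 4. The highest and the lowest library were both younger PKCd libraries, so the populations overlapped throughout. The log2 difference was 0.67 ± 1.16 (95% interval -1.87 to 3.21; edgeR adjusted p = 0.957), and -0.37 without PKCd replicate 1. PKCd replicate 2, the lowest, also had the lowest sum of 10 astrocyte markers, 460 TPM against 3173 to 7172 TPM in the other 7 libraries. Over the 8 libraries Slc6a11 and this sum had a Pearson r of 0.64 and a Spearman rho of 0.24 on log2 values. Without the 2 libraries farthest from the median of the sum, r was -0.30. The part of astrocyte RNA in Slc6a11 was not tested.

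Abat as a whole (chr16:8513429-8621568) was at 118, 6.65, 219 and 110.4 TPM in PKCd replicates 1 to 4 and at 29.4, 114, 209 and 10.3 TPM in SST replicates 1 to 4. It was high in 3 PKCd and 2 SST libraries and lowest in PKCd replicate 2, where Slc6a11 was also lowest. The difference was 0.33 ± 0.91 on the log2 scale (95% interval -1.67 to 2.32; edgeR adjusted p = 0.980), and -0.46 without PKCd replicate 1; it was below 0 also without PKCd replicate 3 or SST replicate 4. Slc6a11 and Abat had a Pearson r of 0.83 and a Spearman rho of 0.69 over the 8 libraries, which fell to r = 0.05 without the 2 libraries farthest from the median of Slc6a11, so it rests on those libraries.

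Gphn (chr12:78217325-78684772), the scaffold beneath glycine and GABA-A receptors, was at 23.5, 29.1, 26.2 and 0.707 TPM in the PKCd libraries and at 16.4, 63.2, 75.4 and 35.4 TPM in the SST libraries. SST replicates 2 to 4 lay above all PKCd libraries, and SST replicate 1 lay below 3 of them. The means were 19.9 ± 13.0 and 47.6 ± 26.7 TPM (SD, n = 4). The log2 difference was -1.17 ± 0.97 (95% interval -3.30 to 0.95; edgeR adjusted p = 0.906), and it stayed below 0 in all 21 alternatives run, from -1.94 to -0.43, with 0 of them past the threshold.

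Nlgn2 (chr11:69823123-69837784), the adhesion protein of inhibitory synapses, was low: 1.48, 11.2, 0 and 0.228 TPM in the PKCd libraries and 0.851, 10.9, 9.25 and 1.96 TPM in the SST libraries. Replicate 2 was highest in each population, and the older PKCd libraries held 0 and 1 estimated counts. The log2 difference of -2.09 ± 2.27 (95% interval -7.07 to 2.88; edgeR adjusted p = 0.931) spans both directions widely.

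Gabbr1 (chr17:37045966-37074305), the GABA-binding subunit, had the narrowest spread of the 9 genes. It was at 49.0, 26.8, 27.4 and 8.44 TPM in PKCd replicates 1 to 4 and at 9.94, 60.2, 47.5 and 14.3 TPM in SST replicates 1 to 4. Replicate 4 was lowest among PKCd and replicate 1 among SST, and the ranges overlapped nearly fully. The log2 difference was -0.18 ± 0.73 (95% interval -1.78 to 1.42; edgeR adjusted p = 0.988), and 0.29 without SST replicate 3; it was above 0 also without PKCd replicate 4 or SST replicate 2. Gabbr1 and Gad2 had estimated counts that were not whole within 0.01, so part of their reads was shared with other targets.

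Gabbr2 (chr4:46662318-46991714), the subunit that couples to the G protein, was at 7.51, 0.0354, 0 and 2.89 TPM in the PKCd libraries and at 0, 3.90, 17.5 and 0.495 TPM in the SST libraries. Among the younger libraries SST replicate 1 had 0 counts, which is under 0.0702 TPM at a floor of 3 counts, and PKCd replicate 2 had 1. The log2 difference was -0.61 ± 2.53 (95% interval -6.16 to 4.95; edgeR adjusted p = 0.989), 1.31 without SST replicate 3 and 0.28 without PKCd replicate 3. Gabbr1 made up most of summed Gabbr1 and Gabbr2 TPM in every library, at 86.7, 99.9, 100 and 74.5% in PKCd replicates 1 to 4 and 100, 93.9, 73.0 and 96.7% in SST replicates 1 to 4, with means of 90.3 ± 12.2% and 90.9 ± 12.2% (SD, n = 4).

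**Figure D3:**
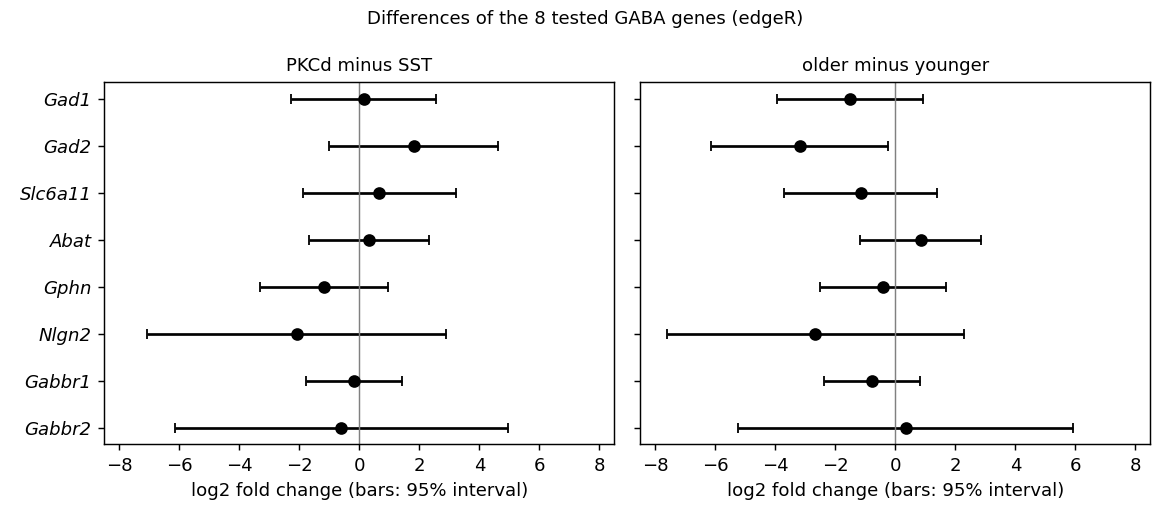
Log2 fold change of the 8 GABA genes that passed the filter (points, edgeR) with 95% intervals (bars), for PKCd minus SST on the left and older minus younger on the right, on the same scale. All 8 intervals on the left include 0, as do 7 of 8 on the right, where Gad2 runs from -6.15 to -0.24 before adjustment.

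Between the age classes 0 of the 8 genes passed the test, against 0.0616% of all genes (4 higher and 3 lower in the older libraries, 950 with an unadjusted p under 0.05; DESeq2 252 higher and 310 lower). Gad2 had the smallest p of the 8. Its mean was 37.0 TPM in the 4 younger and 6.24 TPM in the 4 older libraries, which overlapped, and its log2 difference was -3.19 ± 1.35 (unadjusted p = 0.0364, adjusted p = 0.557, edgeR). With no filter on low counts Gad2 passed (adjusted p = 0.0459), in a fit that called 1.5% of 17045 genes; over all its alternatives its adjusted p ran from 0.0459 to 0.828. Gad1 went from 46.5 to 19.4 TPM on average (-1.51 ± 1.11, edgeR adjusted p = 0.749) and Abat from 67.1 to 137 TPM (0.84 ± 0.91, edgeR adjusted p = 0.847).

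Of the other genes Slc6a11, Nlgn2 and Gabbr1 were also lower on average in the older libraries, at 11.0, 2.86 and 24.4 TPM against 19.8, 6.09 and 36.5 TPM, and none passed. Gabbr2 was higher on average in the older libraries, at 5.23 against 2.86 TPM (log2 difference 0.34 ± 2.54, edgeR adjusted p = 0.981). Gphn was at 34.4 TPM in the older and 33.1 TPM in the younger libraries, with a log2 difference of -0.41 ± 0.96 that differs in sign from the means (edgeR adjusted p = 0.936). Slc32a1, which was not tested, was at 0.101 against 3.41 TPM. No gene of the 9 had age classes that did not overlap, where 7.66% of all genes tested had. All 10 pan-neuronal markers had a negative estimate in the older libraries as well, with a median of -2.37 against -0.17 over all genes tested, and 0 of them passed; the part of neuronal content or of depth in the age estimates was not tested. The population difference did not differ detectably between the age classes for any of the 8 genes, and 0 of 11370 genes (0%) passed that test in edgeR, with 471 at an unadjusted p under 0.05 and 79 called by DESeq2.

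At equal depth, with every library thinned to the total of the shallowest one, the same libraries were high and low for Gad2 and Abat. Thinning draws at random from a library's own counts and keeps each gene's expected share. The order of libraries for genes with many counts was therefore largely set beforehand, and it cannot show where the spread comes from. Gad2 was left with 26, 278, 68 and 1 counts in PKCd replicates 1 to 4 and 7, 162, 3 and 7 in SST replicates 1 to 4. Abat was left with 336, 15, 562 and 286 counts and 91, 263, 535 and 25. Slc32a1 kept 18 counts in PKCd replicate 2, 1 in SST replicate 3 and 0 in the other 6, among them PKCd replicate 1 and SST replicate 1, which held 23 and 21 counts at full depth. For the 6 genes tested at that depth, the 95% interval of PKCd minus SST was 3.16 to 5.48 wide on the log2 scale, against 3.19 to 5.66 for the same genes at full depth.

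The libraries also held RNA of other cell types. The summed TPM of 10 pan-neuronal markers (Rbfox3, Snap25, Syt1 and others) was 169 to 701 in the PKCd and 166 to 672 in the SST libraries. That of 9 oligodendrocyte markers was 11740 to 29935 and 11744 to 61044, and that of 10 astrocyte markers 460 to 4097 and 3273 to 7172. The 12 microglia markers summed to 31015 to 54045 TPM in the PKCd and 490 to 6366 TPM in the SST libraries with no overlap. Taken singly, all 12 had populations that did not overlap in TPM, where 6.91% of all genes tested had, in either direction. Of the 12, 4 passed the test (C1qa, Csf1r, Cx3cr1 and Tmem119), against 0.281% of all genes tested. These 4 are among the 32 genes behind that share. Of the GABA neuron markers outside the set, Dlx1 and Dlx6 were at 0 in all 4 SST libraries; Slc17a6, an excitatory marker, and Hbb-bs, of red blood cells, were at 0 there too. In such mixed RNA, fewer cells of a type and less RNA per cell cannot be told apart, and the part of these cell types in the GABA genes was not tested.

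**Figure D4:**
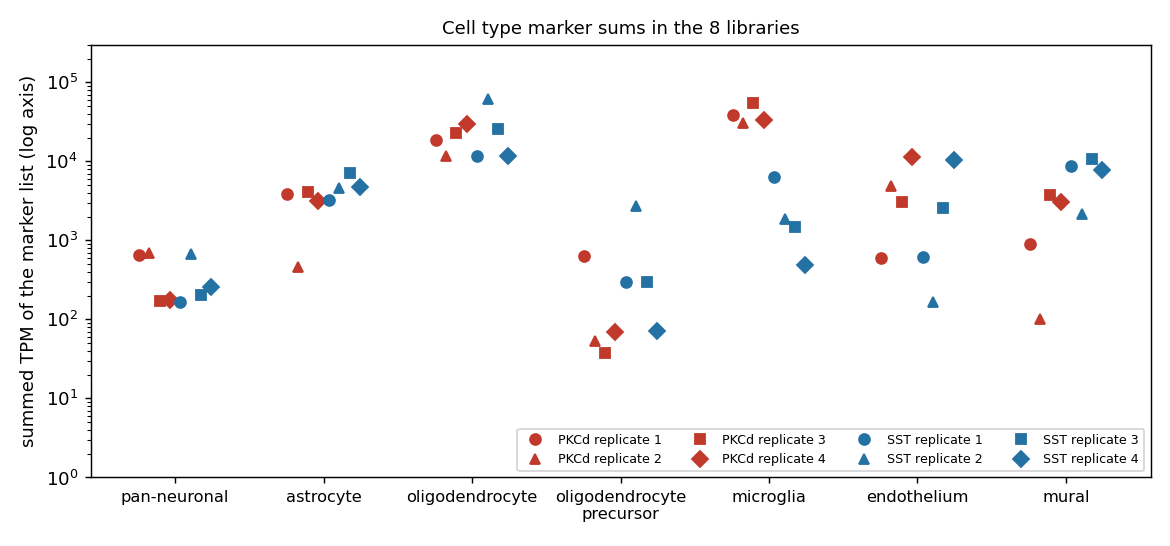
Summed TPM of each cell type marker list (vertical log axis) in the 4 PKCd (red) and 4 SST (blue) libraries. Pan-neuronal sums lie between 166 and 701 TPM and overlap, while the microglia sums lie between 31015 and 54045 TPM in PKCd and between 490 and 6366 TPM in SST.

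Around the 9 genes, 63 of 90 genes in 5 related lists passed the filter. Between PKCd and SST 0 rose and 0 fell, against 0.281% of all genes tested called. Between age classes 0 rose and 0 fell as well, against 0.0616%. An unadjusted edgeR p under 0.05 was found for 4 and for 10 of the 63, against 759 and 950 of all 11370 genes tested. Of the genes for GABA uptake, breakdown and precursor supply, 18 of 20 were tested, 7 with a positive and 11 with a negative estimate, with a median log2 difference of -0.09 against -0.08 over all genes tested. Pdxk, which activates vitamin B6 to the cofactor of the decarboxylases and of GABA transaminase, had the smallest p of that list (1.60 ± 0.65, adjusted p = 0.627, edgeR), followed by Slc38a5 (3.17 ± 1.56) and Glud1 (-0.93 ± 0.50).

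Of the 20 inhibitory scaffold and adhesion genes 13 were tested, 6 with a positive and 7 with a negative estimate (median -0.32). Mocs2, of the molybdenum cofactor pathway that gephyrin also serves, was at a log2 difference of -0.78 ± 0.54. Gabarap, a binding partner of GABA-A receptors, was at -0.64 ± 0.44, and neither passed. For 2 of the 13 genes, Mocs2 among them, all PKCd libraries lay below all SST libraries in TPM. Of all genes tested, 6.91% had populations that did not overlap, in either direction.

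Of the 22 auxiliary proteins and effectors of GABA-B receptors 15 were tested, 8 with a positive and 7 with a negative estimate (median 0.25). Kctd12, an auxiliary subunit that speeds desensitisation of the receptor, was at 97.0, 100.3, 109 and 60.5 TPM in the PKCd and 23.0, 5.51, 5.96 and 9.66 TPM in the SST libraries. The groups did not overlap, as was so for 6.91% of all genes tested. The difference of 3.02 ± 0.65 on the log2 scale did not pass (edgeR adjusted p = 0.124). Kctd12 is also expressed outside neurons, and the microglia sums split the populations the same way; their part in it was not tested. Gnai2 (1.15 ± 0.67) and Cacna1b (-2.93 ± 2.20) followed.

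Of the 16 chloride carrier and vesicle release genes 14 were tested, 10 positive and 4 negative (median 0.31), among them Ncald (-1.63 ± 0.72) and Wnk1 (1.23 ± 0.58), neither of which passed. Between age classes all 14 had a negative estimate (median -1.19 against -0.17 over all genes tested) and 0 passed. The 10 pan-neuronal markers, which share Snap25 and Syt1 with this list, were all negative too (median -2.37). The part of neuronal content or of depth in these estimates was not tested. Only 3 of 12 Dlx-type regulators could be tested, among them Meis2 (0.95 ± 1.05) and Foxp2 (-0.38 ± 1.47), and 0 passed.

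None of the 3 genes nearest in pattern to Gad1, Slc6a11, Gphn or Gabbr1 was another of the 9. Over the 8 libraries and 7986 genes with a mean of at least 10 TPM, Gad1 ran most like Mpnd (Pearson r = 0.98 on log2(TPM + 1), Spearman rho = 1.00), Slc25a39 (r = 0.96) and Fam98c (r = 0.95), while Gad2 ranked 2560 of these. Gphn ran most like Nkap (r = 0.99), Oxa1l (r = 0.97) and Wdr34 (r = 0.95). Gabbr1 was nearest to Rgl1 (r = 0.96), Cpsf4 (r = 0.95) and Dvl1 (r = 0.94), and Slc6a11 to Mfsd11 (r = 0.93), Scd2 (r = 0.93) and Arl10 (r = 0.91). With 8 libraries and this many genes, values of this size are picked as the highest of many, and they are given as a description only.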

How the data were processed

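RNA-seq was analysed from 8 libraries (4 PKCd, 4 SST). The deposited tables hold, per the file headers, the authors' estimated counts and TPM per RefSeq target; BWA 0.7.12, the build mm10 and kallisto 0.43.0 are listed, without roles, in the submitters' processing notes. Of 30404 targets, 29405 were named from RefSeq and 142 from GENCODE, and 857 kept their identifier only; values were summed to 21375 genes. Estimated counts were rounded and tested with edgeR 4.0.16 (R 4.3.3; TMM scaling, default filter by population, quasi-likelihood F test, age class and population as terms, Benjamini-Hochberg adjustment over all genes tested, threshold 0.05). DESeq2 1.42.0, limma 3.58.1 on log2(TPM + 1) and log2(TPM + 0.1), limma-voom, other scalings and filters, thinning, single age classes and leaving out each library were alternatives. The scripts were tested on simulated data. Genes were named by a rule: all 9 GABA genes, the 3 smallest unadjusted p of each related list, and the 3 most alike genes for Gad1, Slc6a11, Gphn and Gabbr1. Some genes that the rule names are not reported here. Members and lists were chosen with earlier results of these data known. Each library came from a separate mouse, per the labels. Exon sequences came from GENCODE M21 on GRCm38. No protein sequence was used here.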

Additional observations from a re-analysis of the deposited data

Results flagged for a closer look

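In groups of 4 libraries the highest or the lowest value was set against the other 3. Of 50 groups examined 6 had such a value. A chance rate of about 1 in 20 would apply to independent groups. These groups reuse the same 8 libraries, so their number cannot be set against that rate. Replicate 2 of the PKCd libraries accounts for 3 of them: Slc32a1 was at 12.2 TPM, against 0 to 0.736 TPM in the other PKCd libraries; Nlgn2 was at 11.2 TPM, against 0 to 1.48 TPM; and the Gphn form with the 108-base exon took 2.81% of Gphn TPM, against 94.4 to 100%. Replicate 2 of the SST libraries accounts for 2: Gad2 was at 57.4 TPM, against 0.992 to 2.71 TPM, and the oligodendrocyte precursor markers summed to 2751 TPM, against 70.3 to 295 TPM. In PKCd replicate 1 the oligodendrocyte precursor markers summed to 632 TPM, against 37.2 to 69.5 TPM in the other PKCd libraries.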

How the results depend on the processing

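With 8 mice and a spread this wide, the intervals of the GABA genes allow differences of several fold, and in the 4 older libraries Slc32a1 was at 0 in 3, and Gabbr2 and Nlgn2 at 3 counts or fewer in 2 each. No GABA gene passed between PKCd and SST in any alternative run; between age classes 1 did, Gad2 with no filter. All genes called between PKCd and SST numbered 32, against 457 with DESeq2, 69 with limma on log2(TPM + 0.1), 132 on log2(TPM + 1), 271 with no filter, 61 after thinning, 8 in older and 0 in younger libraries alone; with 1 library left out there were 10 (PKCd replicate 3, or SST replicate 3) to 52 (SST replicate 1). Between age classes 7 were called, against 562 with DESeq2, 14 and 62 with limma on log2(TPM + 0.1) and log2(TPM + 1), 255 with no filter, 2 with a stricter filter, 0 with limma-voom, and 0 to 1 leaving out each library. The test of population by age class called 0, against 79 with DESeq2 and 25 with no filter. The cause of these shifts was not tested. PKCd minus SST turned sign for Gad1 (-0.28 on log2(TPM + 0.1), -0.20 on log2(TPM + 1), -0.86 in older libraries; -0.94 to 1.23 leaving out each library), Slc6a11 (-0.0907 on log2(TPM + 0.1), -0.73 with voom; -0.37 to 1.19), Abat (-0.00855 with voom, -0.10 in younger; -0.46 to 1.13), Nlgn2 (0.42 in younger), Gabbr1 (0.42 with voom, 0.30 in younger; -0.56 to 0.29), Gabbr2 (0.0791 with voom, 1.20 in younger; -3.35 to 1.31) and Gad2 (-0.0930 to 3.18 leaving out each library). Older minus younger turned sign leaving out a library for Gphn (-1.06 to 0.16, above 0 without PKCd replicate 4) and Gabbr2 (-1.65 to 3.01, below 0 without SST replicate 1 or 3). With the replicate block 24 genes and 0 GABA genes were called. Deviations of same-numbered libraries from their population mean correlated at 0.0765, 0.124, 0.0614 and 0.174, and such libraries also share an age class. By these deviations 4 of 8 libraries correlated best with their own number. As deviations from the mean of population and age class, the correlations were -0.00354 for replicates 1 and 2 and -0.00636 for replicates 3 and 4. The numbers were not taken to pair the libraries.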
